A study of Mus musculus with 5 samples.

Results

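The nuclear hormone receptors are a family of transcription factors, most of which are switched by a small lipid-soluble ligand. The members were 39 receptor genes listed by name, and 37 of them had a row in the counts of 30046 features, of which 17087 were protein-coding genes and 5 were reporter sequences. *Esrrb*, an estrogen-related receptor, and *Nr0b1*, a receptor without a DNA-binding domain, had no row, and only their promoters were searched.

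Bulk RNA sequencing was done on marrow cells of mouse femurs at postnatal day 21, sorted as Cxcl12-GFP high and tdTomato+. All mice carried a GFP gene at 1 copy of the *Cxcl12* locus and a tdTomato reporter at the R26R locus that a Cre recombinase switches on for good. In Dlx5CE-E12.5 (3 libraries) the recombinase was a creER driven by *Dlx5*, active in the perichondrium around fetal cartilage, and in Fgfr3CE-E12.5 (2 libraries, replicates 2 and 3 by the labels) it was an iCreER transgene driven by *Fgfr3*, active in fetal chondrocytes. Tamoxifen, given once to the pregnant dams on embryonic day 12.5, marked the cells in both, so the comparison asks how stromal cells of perichondrial and of cartilage origin differ once they lie in the marrow. Cells of several mice were pooled for a group, and the published methods name no gate against blood or endothelial cells for this sort. Those methods give paired 150-base reads from one sequencer for Dlx5CE-E12.5 and single 50-base reads from another for Fgfr3CE-E12.5, so lineage, read length and, by those methods, sequencer cannot be told apart. The deposited labels instead name the same sequencer for all 5 libraries.

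As background, a ligand such as estrogen, cortisol, thyroid hormone, retinoic acid or vitamin D binds the receptor, which then exchanges corepressors for coactivators on DNA. Steroid receptors pair with themselves and wait on chaperones, whereas the thyroid, retinoic acid, vitamin D, PPAR and LXR receptors pair with a retinoid X receptor. In bone marrow stroma, vitamin D and glucocorticoid signalling act on the output of osteoclast-forming signals and on fat formation, and estrogen receptor alpha takes part in the upkeep of bone mass.

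Total counts were 32563758, 22035650 and 27135553 in replicates 1, 2 and 3 of Dlx5CE-E12.5 and 56355203 and 58166285 in replicates 2 and 3 of Fgfr3CE-E12.5. Levels are CPM, counts scaled to the library total and its TMM factor, always listed in that order of libraries. A floor of 3 counts corresponded to 0.0473 to 0.141 CPM on that scale and covers counting error only. Log2 fold changes are Fgfr3CE-E12.5 over Dlx5CE-E12.5, so a negative value is a higher level in Dlx5CE-E12.5. Calls needed a p, adjusted by the Benjamini-Hochberg method (BH), under 0.05 by the quasi-likelihood test of edgeR and a log2 fold change of more than 1 in size, and these p-values measure only the spread between these 5 libraries.

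The labelled stromal identity was checked against markers. The 10 marrow stroma genes summed to 33218, 35258, 34398, 13434 and 8781 CPM, with *Cxcl12*, the chemokine whose locus carries the GFP, as the most abundant at 22405, 22351, 21252, 8068 and 5802 CPM. Of these 10, 7 were called higher in Dlx5CE-E12.5 and 1, *Foxc1*, higher in Fgfr3CE-E12.5. Of all 10088 genes tested at 10 CPM, 13.1% and 16.4% were so called. Stromal markers were thus present in all 5 libraries, and the lineages did not overlap in their sum. The 10 pan-leukocyte genes, led by *Arhgdib*, summed to 603, 543, 477, 1479 and 3178 CPM, and 10 of 10 were called higher in Fgfr3CE-E12.5. The 10 neutrophil genes, led by *Ngp*, summed to 2665, 3167, 2537, 7100 and 17543 CPM, and the 10 macrophage and monocyte genes, led by *Lyz2*, to 334, 458, 391, 1468 and 3320 CPM. All 3 of these blood cell lists were highest in Fgfr3CE-E12.5 replicate 3. In bulk RNA, fewer cells of a type and less RNA per cell cannot be told apart.

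The 8 chondrocyte genes, led by *Col2a1* in Fgfr3CE-E12.5, summed to 136, 129, 130, 3096 and 437 CPM, and *Col9a1* and *Col10a1* had no count in Dlx5CE-E12.5. In Dlx5CE-E12.5 most of the sum was *Sox9*, at 124, 117 and 122 CPM. The 8 osteoblast genes, led by *Col1a1*, summed to 5373, 4225, 3928, 7352 and 9784 CPM. Both skeletal sums were higher in the cartilage-derived cells, the first mainly in replicate 2 and the second mainly in replicate 3. *Sox9* and the osteoblast gene *Runx2* went the other way without overlap, at log2 fold changes of -0.69 and -0.67, not called. The erythroid list, led by *Hbb-bs*, summed to 35980, 17603, 23189, 13583 and 20197 CPM. B lineage genes, led by *Ebf1*, which stroma also expresses, summed to 909, 855, 835, 600 and 583 CPM. T and NK genes, led by *Nkg7*, summed to 22.2, 13.7, 8.87, 33.9 and 71.8 CPM. The sums of the lymphocyte lists thus went opposite ways, and the erythroid sums of the lineages overlapped. Gene by gene, the 5 B lineage genes tested at 10 CPM had a median log2 fold change of 1.08. Of these 5, 2 were called higher in Fgfr3CE-E12.5, and 1, *Ebf1* at a log2 fold change of -1.37, higher in Dlx5CE-E12.5. Megakaryocyte genes, led by *Itga2b*, summed to 5.35, 6.69, 6.52, 59.8 and 16.2 CPM. Osteoclast genes, led by *Ctsk*, summed to 195, 190, 189, 247 and 248 CPM, and *Ocstamp*, *Dcstamp* and *Calcr* had no count in Dlx5CE-E12.5. Endothelial genes, led by *Pecam1*, summed to 41.4, 46.3, 29.0, 32.6 and 44.3 CPM. These 3 lists were low beside the stromal sum. Mural genes, led by *Notch3*, summed to 376, 203, 186, 275 and 217 CPM, and proliferation genes, led by *Pcna*, to 435, 253, 283, 679 and 747 CPM. Over all cell lists, 61 of 105 tested genes were called higher in Fgfr3CE-E12.5 and 12 higher in Dlx5CE-E12.5, and the 61 became 28 without Fgfr3CE-E12.5 replicate 3. Of all genes tested at 10 CPM, 16.4% were called higher in Fgfr3CE-E12.5 and 13.1% higher in Dlx5CE-E12.5. The part of the cell type differences in the receptor results below was not tested.

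**Figure D1:**
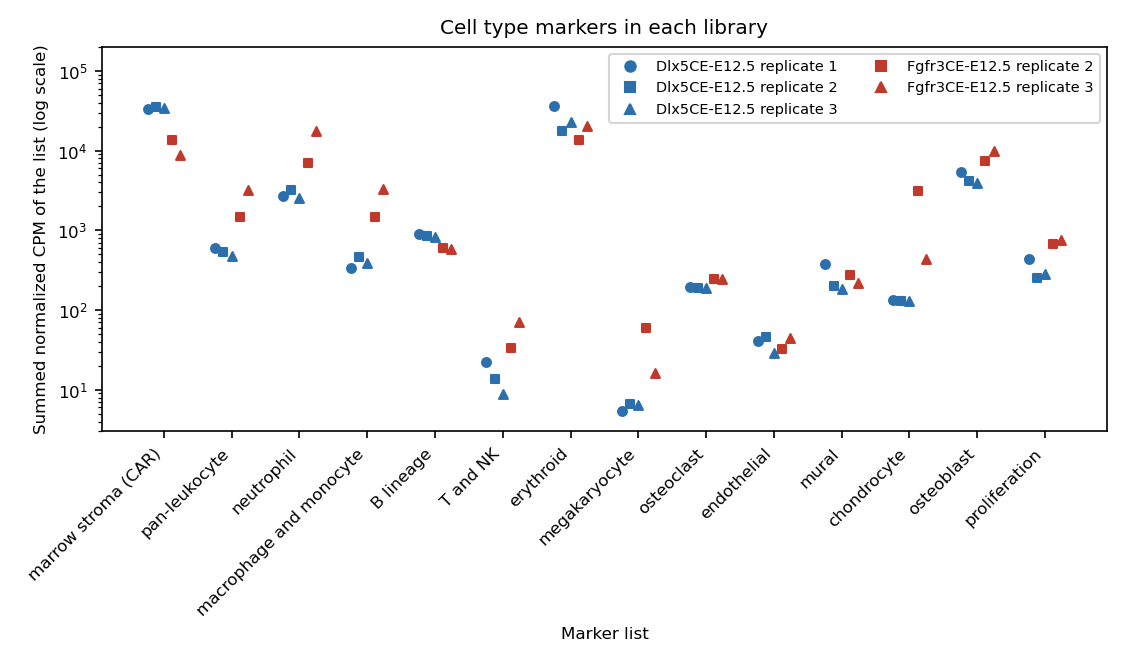
Summed level of each cell marker list in each of the 5 libraries, in CPM on a log axis, with 1 point per library. Marrow stroma markers lie between 8781 and 35258 CPM, and the neutrophil list reaches 17543 CPM in Fgfr3CE-E12.5 replicate 3.

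Of the 37 receptors with a row, 20 reached 10 CPM in at least 2 libraries and were tested, 6 more reached 1 CPM and were tested at that lower filter, and 11 stayed below both. At the filter of 10 CPM, 7 receptors were called higher in Dlx5CE-E12.5, where 13.1% of all 10088 genes tested were, and 3 were called higher in Fgfr3CE-E12.5, where 16.4% of all genes were. At the filter of 1 CPM, 8 of 26 receptors were called higher in Dlx5CE-E12.5 (12.9% of all 13225 genes tested) and 3 higher in Fgfr3CE-E12.5 (16.6% of all). The libraries of the lineages did not overlap for 16 of the 20 receptors, against 68.9% of all genes. Of those 16, 11 were higher in Dlx5CE-E12.5, as were 3444 of the 6954 genes without overlap. The median log2 fold change was -0.45 over the 20 receptors and 0.01 over all genes. Scaling by library size alone moved the median of all genes to 0.22 and the share of calls that were higher in Fgfr3CE-E12.5 from 55.6% to 66.3%. Of the called receptors, 3 (*Nr3c2*, *Ppard* and *Esrra*) passed the filter only through the lineage in which they were high and so had to differ, and the counts are a description. The same holds for 5 genes of the pathway lists below, *Zbtb16*, *Mt2*, *Lrp5*, *Abcg1* and *Lcor*, each high in Dlx5CE-E12.5. All 8 were also called in the same direction at 1 CPM. Leaving out Fgfr3CE-E12.5 replicate 3 took the receptors called higher in that lineage from 3 to 1, since *Rxrb* lost its call and *Esrra* no longer passed the filter, and those called higher in Dlx5CE-E12.5 at the lower filter from 8 to 5. Testing for a change above 2-fold ended the calls of *Nr4a1*, *Nr4a2*, *Nr4a3*, *Rarb*, *Rxrb* and *Esrra*.

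**Figure D2:**
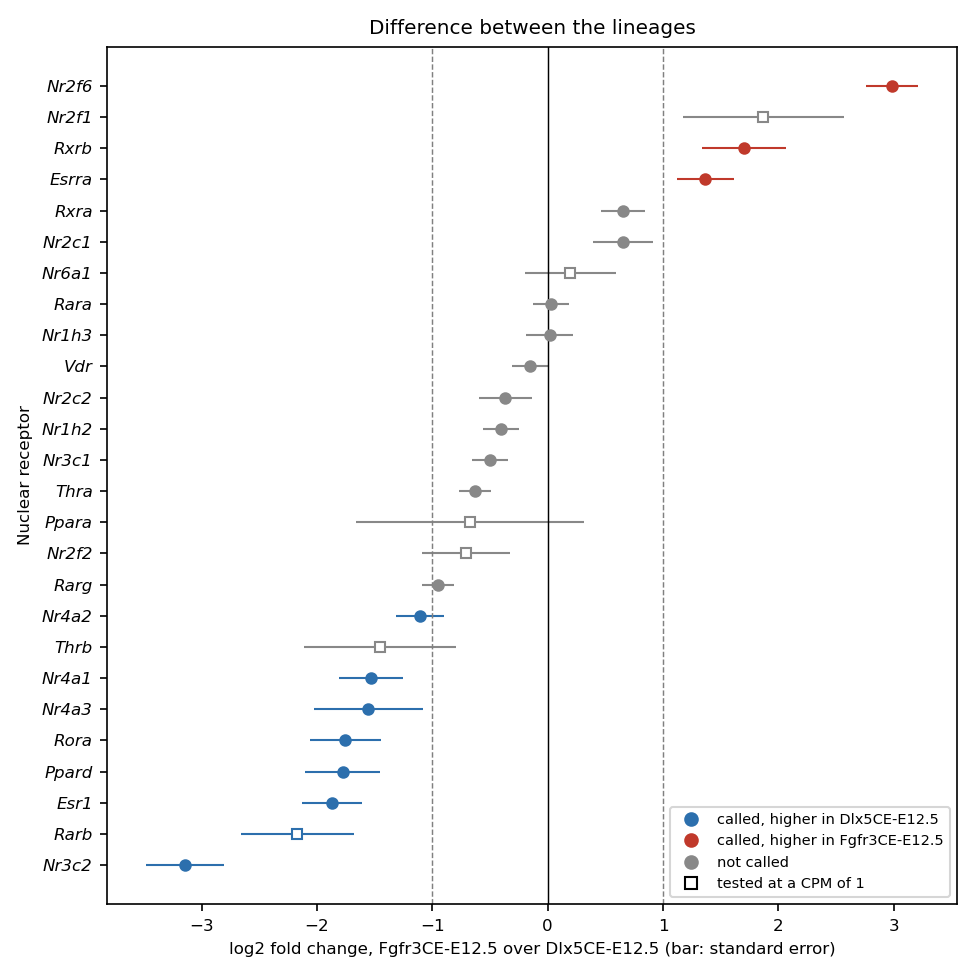
Log2 fold change of each tested receptor, Fgfr3CE-E12.5 over Dlx5CE-E12.5, with bars for the standard error. Colours mark the receptors called in each direction, grey those not called, squares those tested at 1 CPM, and dashed lines the threshold. The values run from -3.14 for *Nr3c2* to 2.99 for *Nr2f6*.

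The steroid receptors held the largest decrease in the cartilage-derived cells. *Nr3c2* (ENSMUSG00000031618, chr8:76899442-77245012), the mineralocorticoid receptor, which binds aldosterone and also cortisol-like steroids, stood at 13.9, 19.4, 17.9, 2.41 and 1.45 CPM. Both Fgfr3CE-E12.5 libraries lay far below the lowest Dlx5CE-E12.5 library. The log2 fold change was -3.14 (SE 0.34, n = 3 and 2, edgeR quasi-likelihood BH-adjusted p = 0.000489). *Esr1* (ENSMUSG00000019768, chr10:4611593-5005614), estrogen receptor alpha, stood at 157, 191, 170, 60.5 and 33.9 CPM. All 3 Dlx5CE-E12.5 libraries were above both Fgfr3CE-E12.5 libraries, with a log2 fold change of -1.87 (SE 0.26, edgeR quasi-likelihood BH-adjusted p = 0.00142). The creER drivers carry a modified ligand-binding domain of an estrogen receptor, and the iCre.ERT2 sequence had 451, 519, 521, 4802 and 3762 counts and the cre sequence 416, 467, 456, 1 and 1. Any part of driver reads in the *Esr1* counts was not tested. The glucocorticoid receptor *Nr3c1*, which binds corticosterone in mice, stood at 103, 105, 107, 83.9 and 64.5 CPM. Its lineages did not overlap, but the difference was small and not called, with a log2 fold change of -0.50 (SE 0.15) that became -0.26 without Fgfr3CE-E12.5 replicate 3. The remaining steroid receptors were near the floor. *Esr2*, estrogen receptor beta, had 0, 8, 12, 27 and 30 counts, and the progesterone receptor gene *Pgr* had 7, 10, 5, 7 and 19.

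Steroid receptors fold on chaperones, and of 10 chaperone genes tested 2 were called higher in Dlx5CE-E12.5 and 1 higher in Fgfr3CE-E12.5 (median log2 fold change -0.10). *Hspa8*, the constitutive heat shock protein that loads the receptor, was the most abundant at 3720, 2923, 4213, 1179 and 1103 CPM (log2 fold change -1.67). *Fkbp5*, a cochaperone that lowers the hormone affinity of the glucocorticoid receptor, stood at 13.5, 16.8, 19.7, 35.1 and 44.4 CPM (log2 fold change 1.25). These genes went opposite ways, each without overlap between the lineages. *St13*, which links the chaperones, stood at 194, 163, 154, 91.4 and 73.2 CPM, and its log2 fold change of -1.05 became -0.95 without Dlx5CE-E12.5 replicate 1 and -0.84 without Fgfr3CE-E12.5 replicate 3, each ending the call.

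Among 10 glucocorticoid receptor targets, 3 were called higher in Dlx5CE-E12.5 and 2 higher in Fgfr3CE-E12.5 (median log2 fold change -0.67). *Zbtb16*, a zinc finger repressor, stood at 12.3, 24.4, 33.7, 3.43 and 1.28 CPM (log2 fold change -3.32, -4.12 without Fgfr3CE-E12.5 replicate 2 and -2.71 without replicate 3). The metallothionein *Mt2* stood at 16, 13, 19.9, 2.47 and 0.931 CPM (log2 fold change -3.26, -4.05 without Fgfr3CE-E12.5 replicate 2 and -2.66 without replicate 3). *Per1*, a clock repressor, stood at 38.4, 44.3, 52.9, 13.2 and 8.22 CPM (log2 fold change -2.07). *Zbtb16* and *Mt2* are among the genes that passed 10 CPM in Dlx5CE-E12.5 alone. *Pdk4*, a kinase that turns cells from glucose to fat as fuel and is also listed as a PPAR target, stood at 35.7, 49.8, 57.7, 305 and 168 CPM (log2 fold change 2.31). *Errfi1*, an inhibitor of the EGF receptor and the most abundant of the list, stood at 1582, 2141, 2588, 1603 and 1052 CPM, with overlapping lineages, and its log2 fold change of -0.66 became -0.33 without Fgfr3CE-E12.5 replicate 3.

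Steroid enzymes were sparse. Of 10 listed, 7 were in the counts and 2 were tested at 10 CPM, neither of them called, while 3 more were tested at 1 CPM with 1 called in each direction. *Cyp11a1*, which makes the first steroid from cholesterol, stood at 0.359, 0.706, 0, 2.44 and 4.12 CPM. Its log2 fold change of 3.20 was 4.09 without Dlx5CE-E12.5 replicate 2 and 2.61 without replicate 3, and without replicate 1 it was 3.24 and no longer called. *Star*, which carries cholesterol into mitochondria, stood at 2.35, 4.14, 3.50, 0.861 and 0.884 CPM. Its log2 fold change of -1.95 lost its call without Dlx5CE-E12.5 replicate 2 (-1.77) or 3 (-1.91) and without Fgfr3CE-E12.5 replicate 2 (-1.90) or 3 (-1.94). *Hsd11b1*, which reactivates inert glucocorticoid inside cells and was the most abundant, stood at 25.9, 15.5, 17.7, 30.8 and 47.9 CPM. Its log2 fold change of 1.00 was just short of a call and passed it without Dlx5CE-E12.5 replicate 1 (1.24) or Fgfr3CE-E12.5 replicate 2 (1.35). Of 6 estrogen receptor targets, 5 were in the counts and none of 3 tested at 10 CPM was called by edgeR, while 1 was called higher in Fgfr3CE-E12.5 at 1 CPM. That gene, *Greb1*, a cofactor induced by estrogen in breast cells, stood at 0.0326, 0.659, 0.716, 2.99 and 9.21 CPM (log2 fold change 3.71, 3.12 without Dlx5CE-E12.5 replicate 1). *Igfbp4*, which binds insulin-like growth factors and led the list in level, stood at 3141, 2855, 2489, 6066 and 4365 CPM, and its log2 fold change of 0.88 became 1.16, a call, without Fgfr3CE-E12.5 replicate 3.

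Of the retinoic acid, thyroid hormone and retinoid X receptors, 2 were called, *Rarb* higher in Dlx5CE-E12.5 and *Rxrb* higher in Fgfr3CE-E12.5, and each call ended without Fgfr3CE-E12.5 replicate 3. *Rarb* (ENSMUSG00000017491, chr14:16430839-16819156), the retinoic acid receptor that retinoic acid itself induces, was tested at 1 CPM and stood at 7.57, 4.43, 4.81, 1.66 and 0.868 CPM. The lineages did not overlap, and the log2 fold change was -2.17 (SE 0.49, edgeR quasi-likelihood BH-adjusted p = 0.0110), but the call ended without Fgfr3CE-E12.5 replicate 3 at a log2 fold change of -1.75. *Rarb* shared 34.1% of its exon bases with *Top2b* on this unstranded library type, so its level is uncertain. *Top2b* itself stood at 58.4, 59.8, 66.0, 85.0 and 55.4 CPM. *Rarg*, the retinoic acid receptor of cartilage and skin, stood at 58.9, 62.2, 56.6, 30.7 and 30.6 CPM. Its lineages lay far apart with hardly any spread, and its log2 fold change of -0.95 (SE 0.14) fell just short of a call. *Rara*, the most widely expressed retinoic acid receptor, ranged from 38.5 to 47.6 CPM with overlapping lineages.

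*Rxrb* (ENSMUSG00000039656, chr17:34031812-34038399), a shared partner of the other receptors, stood at 17.0, 14.5, 15.6, 28.5 and 73.7 CPM. Both Fgfr3CE-E12.5 libraries were higher than all 3 of Dlx5CE-E12.5, and replicate 3 held 2.59 times the level of replicate 2. The log2 fold change was 1.70 (SE 0.36, edgeR quasi-likelihood BH-adjusted p = 0.00799), and it was 2.31 without Fgfr3CE-E12.5 replicate 2 and 0.92, no longer called, without replicate 3. The pan-leukocyte sum rose 2.15-fold and the neutrophil sum 2.47-fold between those same replicates, and their part in the *Rxrb* level was not tested. *Rxra*, the partner most used in liver and skin, stood at 35.9, 33.0, 28.7, 59.0 and 43.2 CPM. Its lineages did not overlap, with a log2 fold change of 0.65 (SE 0.19) that was not called. *Rxrg*, the partner found in muscle and brain, had 0, 1, 0, 9 and 0 counts.

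*Thra*, the main thyroid hormone receptor of bone, stood at 66.2, 65.5, 73.2, 45.9 and 42.3 CPM. All Dlx5CE-E12.5 libraries were higher, with a log2 fold change of -0.63 (SE 0.14) that was not called, and 5.70% of its exon bases overlap the clock repressor *Nr1d1* on the other strand. *Thrb*, the other thyroid hormone receptor, stood at 2.09, 9.23, 8.15, 3.02 and 1.77 CPM. Replicate 1 of Dlx5CE-E12.5 lay among the Fgfr3CE-E12.5 values, and the log2 fold change of -1.45 (SE 0.66) became -1.88, a call, without that library.

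Of 15 genes of retinoid supply and breakdown, 13 were in the counts and 6 were tested at 10 CPM, 1 called higher in Dlx5CE-E12.5 and 3 higher in Fgfr3CE-E12.5 (median log2 fold change 0.80). A further 4 were tested at 1 CPM, 2 called higher in Dlx5CE-E12.5 and 1 higher in Fgfr3CE-E12.5. *Aldh1a2*, which makes retinoic acid and had the highest level in Fgfr3CE-E12.5, stood at 293, 113, 148, 409 and 554 CPM. Its log2 fold change of 1.38 lost its call without Dlx5CE-E12.5 replicate 2 (1.12) or 3 (1.24) or Fgfr3CE-E12.5 replicate 3 (1.21). *Dhrs9*, which oxidises retinol, stood at 1.08, 1.18, 1.47, 6.29 and 11.8 CPM (log2 fold change 2.84). These 2 synthetic enzymes were higher in the cartilage-derived cells. *Dhrs3*, which turns retinal back to retinol, stood at 320, 238, 244, 66.4 and 43.9 CPM (log2 fold change -2.28). The retinoic acid carrier *Crabp1* had 71, 22, 66, 0 and 0 counts and was at least 41.5-fold higher in Dlx5CE-E12.5, taking the floor of 3 counts in each Fgfr3CE-E12.5 library. Its relative *Crabp2* stood at 3.36, 1.41, 1.19, 0.358 and 0.394 CPM. The log2 fold change of *Crabp2* was -2.42, or -1.80 without Dlx5CE-E12.5 replicate 1, and it was not called without Fgfr3CE-E12.5 replicate 2 (-2.33) or 3 (-2.47). The reducing enzyme and both carriers were thus higher in the perichondrium-derived cells.

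Of 10 retinoic acid receptor targets, 4 were tested at 10 CPM, with 2 called higher in Dlx5CE-E12.5 and 0 higher in Fgfr3CE-E12.5 by edgeR (median log2 fold change -1.42), and 3 more were tested at 1 CPM with 2 called higher in Dlx5CE-E12.5. The called ones were *Rarres2*, *Dhrs3*, *Crabp2* and *Rarb*. *Rarres2*, which encodes the secreted protein chemerin, stood at 264, 294, 339, 40.2 and 30.5 CPM (log2 fold change -3.08). *Tgm2*, a transglutaminase and the most abundant, stood at 351, 283, 342, 228 and 212 CPM without overlap (log2 fold change -0.57, not called). Every retinoic acid target named here was lower in both cartilage-derived libraries. For thyroid hormone, 5 of 6 transport and deiodinase genes were in the counts, 2 were tested at 10 CPM with 1 called higher in Dlx5CE-E12.5 (median log2 fold change -1.41), and 2 more at 1 CPM with 0 called by edgeR. Of 6 thyroid hormone receptor targets, 2 were tested at 10 CPM with 1 called higher in Fgfr3CE-E12.5 (median log2 fold change 0.87) and 1 more at 1 CPM, also called higher there. *Me1*, which supplies reducing power for fat synthesis, stood at 11.9, 4.85, 6.32, 24.6 and 20.7 CPM (log2 fold change 1.55). *Nrgn*, a calmodulin-binding protein of neurons and platelets, had 4, 0, 1, 447 and 391 counts (log2 fold change 6.65, 8.09 without Dlx5CE-E12.5 replicate 1), and the megakaryocyte list given above was higher in the same libraries, a part that was not tested. *Klf9*, a repressor with the highest level of the list, stood at 138, 153, 207, 220 and 160 CPM with overlapping lineages.

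The vitamin D receptor *Vdr*, which sets calcium balance and the output of osteoclast-forming signals, was one of the few receptors alike in both lineages, at 176, 161, 205, 154 and 171 CPM. Its lineages overlapped, with a log2 fold change of -0.15 (SE 0.15). Of 3 vitamin D enzymes, 2 were in the counts, none reached 10 CPM, and *Cyp2r1*, the enzyme that starts vitamin D activation, stood at 2.19, 1.22, 0.994, 0.585 and 1.31 CPM, with overlapping lineages. Of 8 vitamin D receptor targets, 6 were in the counts and 5 were tested, with 1 called in each direction (median log2 fold change 0.68). *Spp1*, the bone matrix protein osteopontin and the most abundant, stood at 1242, 806, 714, 5273 and 5948 CPM (log2 fold change 2.61). *Lrp5*, a Wnt coreceptor, stood at 16, 18.8, 20.6, 5.79 and 7.07 CPM (log2 fold change -1.52). *Lrp5* passed 10 CPM in Dlx5CE-E12.5 alone, and the osteoblast list given above was higher in both Fgfr3CE-E12.5 libraries.

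Among the fatty acid receptors, *Ppard* (ENSMUSG00000002250, chr17:28232700-28301474), which drives fatty acid burning in many tissues, stood at 9.20, 13.1, 14.1, 4.24 and 2.82 CPM. The lineages did not overlap, and the log2 fold change was -1.78 (SE 0.33, edgeR quasi-likelihood BH-adjusted p = 0.00433). *Ppara*, the fasting receptor of liver, stood at 0.228, 3.96, 4.10, 2.00 and 1.48 CPM. Its Dlx5CE-E12.5 replicate 1 was the lowest of all 5 libraries, and the log2 fold change of -0.68 (SE 0.99) was -1.23, a call, without that library, -0.34 without replicate 2 and -0.27 without replicate 3. Of 12 PPAR targets tested, 3 were called in each direction (median log2 fold change 0.06). *Angptl4*, an inhibitor of lipoprotein lipase and the most abundant in Dlx5CE-E12.5, stood at 748, 895, 1135, 346 and 188 CPM (log2 fold change -1.79). The list went both ways, since *Pdk4*, given above, was higher in Fgfr3CE-E12.5.

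The oxysterol receptors, which sense cholesterol derivatives, were not called. *Nr1h2*, LXR beta, found in most tissues, stood at 186, 178, 182, 118 and 157 CPM. Both Fgfr3CE-E12.5 libraries were below all Dlx5CE-E12.5 libraries, but the log2 fold change was only -0.40 (SE 0.16), and -0.14 without Fgfr3CE-E12.5 replicate 2. *Nr1h3*, LXR alpha, the form of liver and macrophages, ranged from 23.6 to 31.5 CPM with overlapping lineages. All 5 oxysterol enzymes were tested at 1 CPM, with 1 called higher in Dlx5CE-E12.5 and 2 higher in Fgfr3CE-E12.5. *Ch25h*, which makes an oxysterol ligand and was the most abundant, stood at 19.8, 6.22, 8.43, 4.13 and 1.42 CPM. Its log2 fold change of -2.08 was -3.02 without Fgfr3CE-E12.5 replicate 2, and it was not called without Fgfr3CE-E12.5 replicate 3 (-1.48) or Dlx5CE-E12.5 replicate 1 (-1.42). *Cyp27a1*, which also makes an oxysterol, stood at 1.01, 1.37, 0.835, 2.70 and 3.03 CPM. It was higher in both cartilage-derived libraries, but the log2 fold change of 1.40 was not called in any fit that left out a library, where it was 1.36, 1.60 and 1.25 without Dlx5CE-E12.5 replicates 1, 2 and 3 and 1.5 and 1.34 without Fgfr3CE-E12.5 replicates 2 and 3.

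Of 10 LXR targets, all tested, 2 were called higher in Dlx5CE-E12.5 and 1 higher in Fgfr3CE-E12.5 (median log2 fold change -0.10). *Apoe*, the lipid carrier and the most abundant, stood at 4682, 6915, 8146, 1231 and 1189 CPM (log2 fold change -2.44). *Abcg1*, a cholesterol exporter, stood at 19.3, 23.2, 19.7, 5.56 and 7.53 CPM (log2 fold change -1.66). *Scd2*, a fatty acid desaturase, stood at 35.6, 70.4, 66.2, 224 and 191 CPM (log2 fold change 1.85). The receptors best known from liver and gut were near the floor. The bile acid receptor gene *Nr1h4* had 0, 0, 11, 0 and 2 counts, and the liver regulator *Hnf4a* had 0, 6, 4, 0 and 6. The xenobiotic receptor *Nr1i3* had 1, 0, 0, 18 and 14 counts, and 74.9% of its exon bases overlap *Tomm40l*, so its counts are uncertain. *Nr5a1*, the regulator of steroid-making glands, had 0, 2, 0, 0 and 0 counts. Its relative *Nr5a2* had 0, 2, 1, 2 and 0, and *Nr0b2*, a corepressor induced by bile acids, had 0, 0, 0, 2 and 4. These 6 were below both filters and were not called without a filter.

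The NR4A receptors, immediate early genes that work without a ligand, were all 3 called higher in Dlx5CE-E12.5. *Nr4a1* (ENSMUSG00000023034, chr15:101254269-101274795) stood at 1397, 1100, 2021, 549 and 493 CPM. All 3 Dlx5CE-E12.5 libraries were above both Fgfr3CE-E12.5 libraries, with a log2 fold change of -1.53 (SE 0.28, edgeR quasi-likelihood BH-adjusted p = 0.00415). *Nr4a2* (ENSMUSG00000026826, chr2:57106830-57124003) stood at 74.8, 55.2, 72.8, 36.2 and 26.7 CPM. The lineages did not overlap, with a log2 fold change of -1.11 (SE 0.21, edgeR quasi-likelihood BH-adjusted p = 0.00497), which became -0.84, below the threshold, without Fgfr3CE-E12.5 replicate 3 and -0.89 with library size alone. *Nr4a3* (ENSMUSG00000028341, chr4:48045153-48086447) stood at 20.3, 16.8, 25.5, 10.7 and 3.50 CPM. It too was lower in both Fgfr3CE-E12.5 libraries, with a log2 fold change of -1.56 (SE 0.47, edgeR quasi-likelihood BH-adjusted p = 0.0312). That call was the weakest of the 11, since it ended without Dlx5CE-E12.5 replicate 1 (-1.58) or 3 (-1.39) or Fgfr3CE-E12.5 replicate 3 (-0.90) and with the replicate number as a block (-1.75), and the log2 fold change was -2.50 without Fgfr3CE-E12.5 replicate 2.

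Of 12 other immediate early genes, 5 were called higher in Dlx5CE-E12.5 and 0 higher in Fgfr3CE-E12.5 by edgeR (median log2 fold change -0.66). *Fosb*, an AP-1 subunit, stood at 684, 1042, 1506, 219 and 204 CPM (log2 fold change -2.35). *Jun*, also an AP-1 subunit and by its mean the most abundant in Dlx5CE-E12.5, stood at 3183, 3322, 4917, 1043 and 1342 CPM (log2 fold change -1.67). *Junb* stood at 2812, 3471, 4790, 1355 and 1236 CPM (log2 fold change -1.51). These AP-1 genes were lower in both cartilage-derived libraries, as the NR4A genes were. *Btg2*, an antiproliferative gene, stood at 789, 1129, 2031, 436 and 314 CPM, and its log2 fold change of -1.81 became -1.53, no longer called, without Fgfr3CE-E12.5 replicate 3.

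The promoters of the 3 NR4A genes are shown because all 3 genes were called in the same direction and carry an uncommon number of the same short motif. Sequences were RefSeq promoters on GRCm38.p6, with 36 of the 39 receptors matched, and the 250 bases before each start were searched on both strands for TGACG, the core of the CREB binding site, GGGCGG, the GC box, and AGGTCA, the core site of many nuclear receptors. TGACG occurred at least once in 17.8% of 32851 promoters, at least 3 times in 0.688% and at least 4 times in 0.137%. Each NR4A gene had 4, the only receptors with 3 or more. The windows of *Nr4a1*, *Nr4a2* and *Nr4a3* were 74.4%, 80% and 63.6% GC, against a median of 52.4% over all promoters. The shares were not matched for GC content. Of the 55 promoters of the 36 receptors, some of which have several, 21.8% held at least 1 TGACG, 45.5% at least 1 GGGCGG and 14.5% at least 1 AGGTCA, where 32.7% and 14% of all promoters held the last 2. Capitals mark TGACG or its reverse complement CGTCA, and no other motif searched overlaps them. The stretches are chr15:101266596-101266845 on the plus strand for *Nr4a1*, chr2:57124004-57124253 on the minus strand for *Nr4a2* and chr4:48045055-48045152 on the plus strand for *Nr4a3*, where the rest of the window with the last match lies in an annotated exon. A match is a description and shows no binding.
Nr4a1: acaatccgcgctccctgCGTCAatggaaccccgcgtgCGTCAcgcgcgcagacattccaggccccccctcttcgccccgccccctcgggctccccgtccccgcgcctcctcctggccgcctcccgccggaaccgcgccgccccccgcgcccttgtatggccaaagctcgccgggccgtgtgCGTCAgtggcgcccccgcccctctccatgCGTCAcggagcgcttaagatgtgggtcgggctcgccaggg
Nr4a2: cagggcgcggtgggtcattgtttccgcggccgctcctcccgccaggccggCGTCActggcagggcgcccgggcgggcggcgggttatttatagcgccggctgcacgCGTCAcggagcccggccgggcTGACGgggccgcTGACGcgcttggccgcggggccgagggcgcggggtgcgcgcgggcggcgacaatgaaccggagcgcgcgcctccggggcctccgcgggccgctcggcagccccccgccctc
Nr4a3: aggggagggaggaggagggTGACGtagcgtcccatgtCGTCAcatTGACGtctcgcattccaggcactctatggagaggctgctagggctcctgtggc

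*Rora* (ENSMUSG00000032238, chr9:68653786-69388246), a receptor that activates clock genes and takes part in cartilage and bone growth, stood at 180, 141, 141, 61.4 and 30.2 CPM. Every Dlx5CE-E12.5 library exceeded both Fgfr3CE-E12.5 libraries, with a log2 fold change of -1.75 (SE 0.31, edgeR quasi-likelihood BH-adjusted p = 0.00373). *Rorb*, its relative of brain and retina, had 35, 11, 24, 4 and 4 counts, below both filters, and it was called higher in Dlx5CE-E12.5 only with no filter (log2 fold change -3.71). Of 8 nuclear receptors outside the 39, 6 were in the counts and 4 were tested, with 3 called higher in Dlx5CE-E12.5 and 0 higher in Fgfr3CE-E12.5 by edgeR (median log2 fold change -1.84). *Nr1d1*, a clock repressor that competes with RORs for DNA, stood at 195, 206, 184, 46.9 and 33.9 CPM (log2 fold change -2.27). Its relative *Nr1d2* stood at 108, 165, 183, 66.8 and 47.4 CPM (log2 fold change -1.41).

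*Esrra* (ENSMUSG00000024955, chr19:6910977-6921813), the estrogen-related receptor that drives mitochondrial genes without estrogen, stood at 5.32, 4.99, 6.28, 12.4 and 16.2 CPM. Both Fgfr3CE-E12.5 libraries were above 10 CPM and all Dlx5CE-E12.5 libraries below it. The log2 fold change was 1.37 (SE 0.25, edgeR quasi-likelihood BH-adjusted p = 0.00407), and it was 0.98, no longer called, after removal of the trend on GC content. Its relative *Esrrg* had 0, 0, 6, 0 and 0 counts. Of 10 ERR targets, a list that includes *Esrra* itself, 1 was called in each direction (median log2 fold change 0.14). *Cycs*, cytochrome c, stood at 97.9, 77.4, 76.3, 26 and 29.1 CPM (log2 fold change -1.61). *Atp5b*, an ATP synthase subunit and the most abundant, stood at 654, 578, 597, 935 and 965 CPM (log2 fold change 0.64, not called). The mitochondrial targets did not move together with *Esrra*.

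*Nr2f6* (ENSMUSG00000002393, chr8:71374123-71381960), an orphan receptor that mostly represses and is known from lymphocytes, had the largest increase in the cartilage-derived cells. It stood at 13.2, 11.3, 16.6, 90.1 and 127 CPM. Both Fgfr3CE-E12.5 libraries exceeded the highest Dlx5CE-E12.5 library several fold, with a log2 fold change of 2.99 (SE 0.23, edgeR quasi-likelihood BH-adjusted p = 0.000123). With the trend on GC content removed it was 2.38, still a call. The exons of *Nr2f6* overlap *Ocel1* over 54.4% of their bases, so its level is uncertain. *Ocel1* stood at 20.1, 14.2, 20.9, 13.1 and 21.5 CPM with overlapping lineages. *Nr2f6* is shown because it held 7 GGGCGG motifs before its start, a number reached by 0.411% of promoters and by no other receptor. Its window was 82.4% GC, against a median of 52.4% over all promoters, and that share was not matched for GC content. In the stretch chr8:71381961-71382202 on the minus strand (RefSeq, GRCm38.p6), capitals mark the 6 whole copies of GGGCGG or CCGCCC and, at the end, the first part of a seventh that the stretch cuts off. None overlaps either of the other 2 motifs, and the rest of the window lies in an annotated exon.
Nr2f6: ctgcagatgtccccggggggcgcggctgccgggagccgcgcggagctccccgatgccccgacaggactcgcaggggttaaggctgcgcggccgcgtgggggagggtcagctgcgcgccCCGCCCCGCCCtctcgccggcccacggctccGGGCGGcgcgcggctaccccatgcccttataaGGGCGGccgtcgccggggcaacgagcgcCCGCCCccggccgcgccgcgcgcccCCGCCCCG

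The other orphan receptors were not called. *Nr2f1*, a regulator of neural crest and limb patterning, stood at 0.163, 0.518, 0.756, 1.48 and 2.05 CPM. Both Fgfr3CE-E12.5 libraries were higher, but the log2 fold change of 1.87 (SE 0.70) passed the test only with library size alone, with all features or with the exact test. *Nr2f2*, its relative of veins and mesenchyme, ranged from 2.49 to 6.22 CPM, without overlap between the lineages and with less in Fgfr3CE-E12.5. *Nr2c1* ranged from 13.4 to 33.3 CPM and *Nr2c2* from 21.6 to 39.7 CPM. *Nr2c2* shared 31.2% of its exon bases with *Mrps25*, so its level is uncertain. *Nr6a1*, a germ cell regulator, ranged from 3.42 to 6.09 CPM with overlapping lineages.

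**Figure D3:**
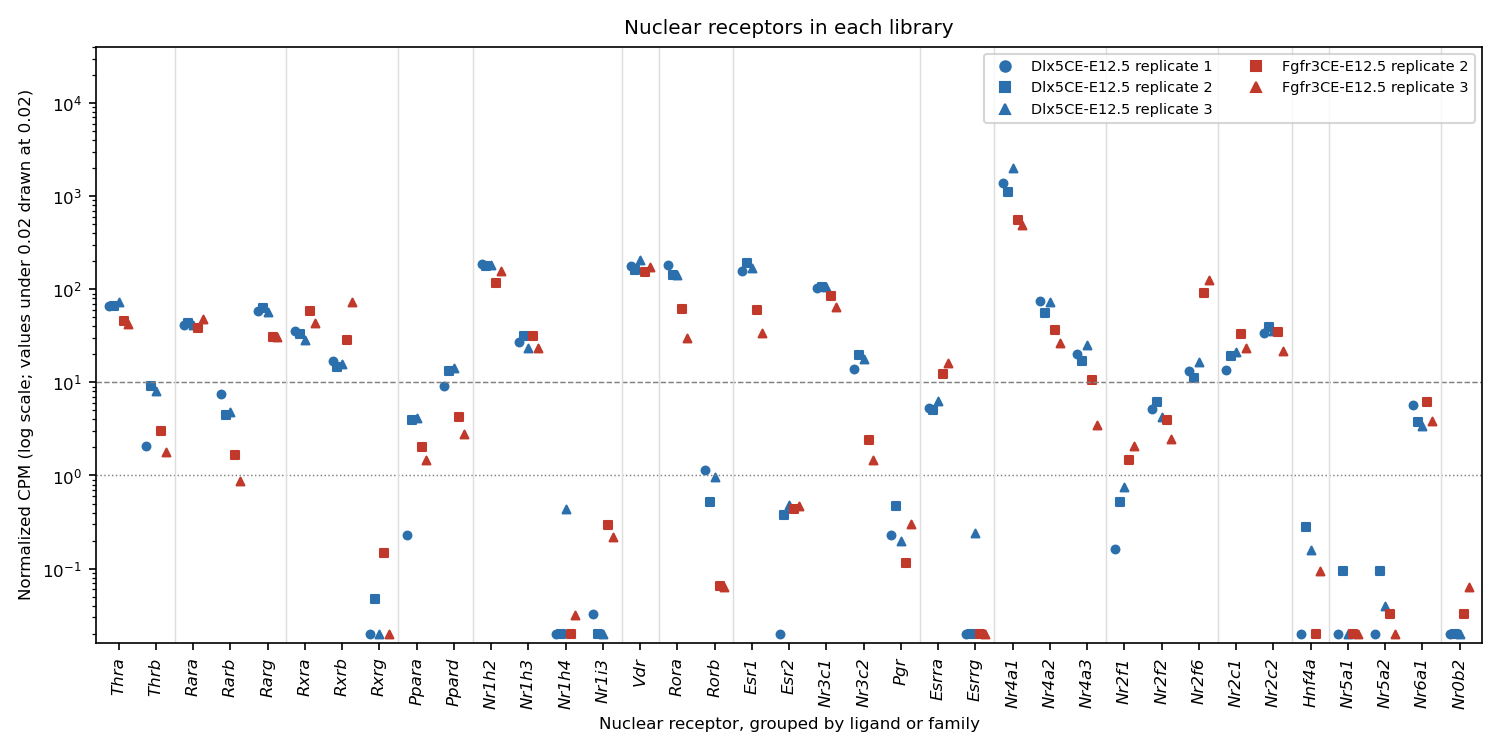
Level of each receptor in each of the 5 libraries, in CPM on a log axis, with 1 point per library, values under 0.02 drawn at 0.02, and lines at the filters of 10 and 1 CPM. *Nr3c2* falls to 2.41 and 1.45 CPM in Fgfr3CE-E12.5, and *Nr2f6* rises to 90.1 and 127 CPM.

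Receptors were compared with each other only as CPM per kb of exons. On that scale *Nr4a1* was first in both lineages, at a mean of 429 CPM per kb in Dlx5CE-E12.5 and 149 in Fgfr3CE-E12.5. *Nr1h2* followed at 54.2 and 41.0 CPM per kb, and *Vdr* stood at 32.0 and 28.8 CPM per kb. *Nr2f6* was of rank 13 in Dlx5CE-E12.5 at 4.58 CPM per kb and of rank 3 in Fgfr3CE-E12.5 at 36.4 CPM per kb. *Nr4a2* stood at 16.7 and 7.74 CPM per kb. The order below *Nr4a1* thus differed between the lineages. In each Fgfr3CE-E12.5 library *Nr2f6*, at 30.2 and 42.6 CPM per kb, lay below *Nr1h2* at 35.1 and 46.9 and above *Vdr* at 27.2 and 30.3. Over the libraries, the range of *Nr2f6* overlapped those of *Nr1h2* and *Vdr*.

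**Figure D4:**
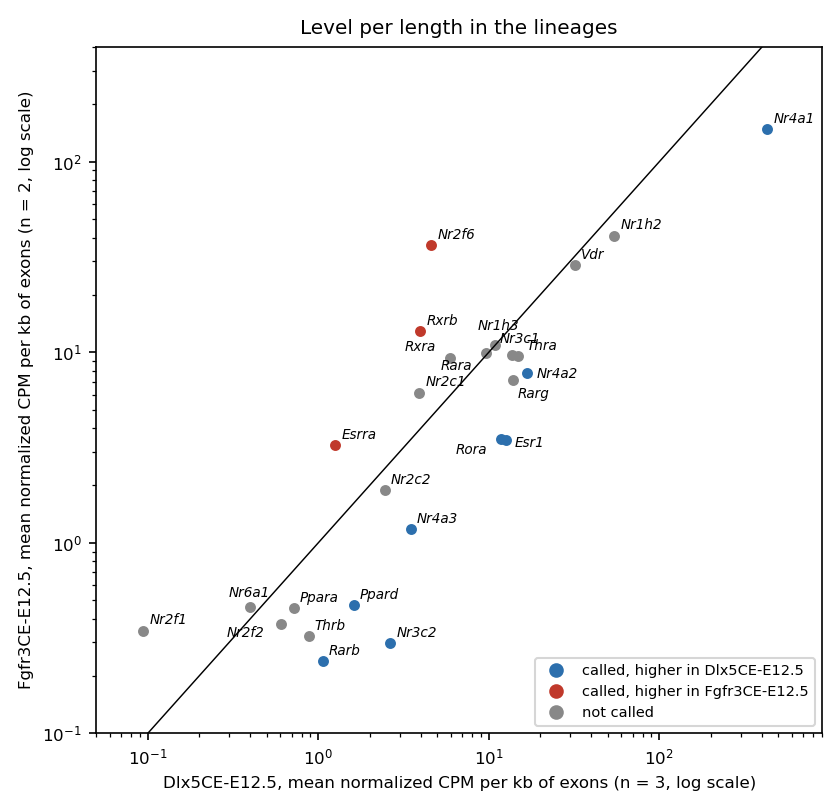
Mean level of each receptor per kb of exons in Dlx5CE-E12.5 and in Fgfr3CE-E12.5, in CPM per kb on log axes, with a line at equal levels and colours for the receptors called. *Nr4a1* lies highest in both, at 429 and 149 CPM per kb.

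The Fgfr3CE-E12.5 libraries differed from each other in the called receptors. All 8 called higher in Dlx5CE-E12.5 at either filter were lower in Fgfr3CE-E12.5 replicate 3 than in replicate 2, as were 77.2% of the 1318 genes so called at 10 CPM and 7 of the 10 receptors not called there. The 3 called higher in Fgfr3CE-E12.5 were higher in replicate 3, as were 68.4% of the 1653 genes so called. The order of the called receptors was thus also that of most genes so called. Of all genes not called at 10 CPM, 51.4% were lower in replicate 3. The marrow stroma sum was likewise lower in replicate 3 and the leukocyte sum higher, and their part in the receptor levels was not tested. GC content of the transcripts had a median of 50.2% (48.6% to 59.8%) over the 7 receptors called higher in Dlx5CE-E12.5, 62.3% (58.7% to 66.5%) over the 3 called higher in Fgfr3CE-E12.5 and 57.3% over the 10 not called. Removing the trend on GC content ended the call of *Esrra* and brought *Rarg* to a log2 fold change of -1.16, a call. It also took *Nr2f6*, at 66.5% GC, from 2.99 to 2.38, still a call.

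The partners through which the receptors act were mixed. Of 12 coactivators, 10 were tested at 10 CPM with 3 called higher in Dlx5CE-E12.5 and 1 higher in Fgfr3CE-E12.5 (median log2 fold change 0.08), and the 1 tested at 1 CPM was not called. *Crebbp*, a histone acetyltransferase and the most abundant, stood at 224, 218, 200, 61.9 and 39.4 CPM (log2 fold change -2.08). *Med1*, the Mediator subunit that binds the receptors, stood at 154, 130, 123, 32.2 and 32.2 CPM (log2 fold change -2.07). Both fell in the cartilage-derived cells. *Carm1*, an arginine methyltransferase, stood at 12.1, 14.4, 19.7, 97.2 and 107 CPM (log2 fold change 2.73). *Ncoa2*, a p160 coactivator, stood at 37.7, 53.1, 46.7, 26.9 and 16.3 CPM, and its log2 fold change of -1.08 was not called without Dlx5CE-E12.5 replicate 2 (-0.97) or Fgfr3CE-E12.5 replicate 3 (-0.71). Of 8 corepressors tested, 1 was called in each direction (median log2 fold change -0.16). *Lcor*, a corepressor bound by ligand-loaded receptors, stood at 35.3, 23.1, 27.2, 8.32 and 6.52 CPM (log2 fold change -1.94). *Gps2*, a subunit of the NCoR complex, stood at 26.9, 28.1, 36.3, 64.5 and 82.5 CPM (log2 fold change 1.27). *Ncor1*, the corepressor that holds unliganded receptors silent and in Fgfr3CE-E12.5 the most abundant of the list, stood at 90.5, 87.0, 86.6, 179 and 167 CPM. The NCoR genes *Gps2* and *Ncor1* were thus higher in both cartilage-derived libraries, and the log2 fold change of *Ncor1*, 0.98, became 1.09, a call, without Fgfr3CE-E12.5 replicate 3. Over all these pathway lists, 27 of 105 genes tested at 10 CPM (25.7%) were called higher in Dlx5CE-E12.5, where 13.1% of all genes were, and 13 (12.4%) higher in Fgfr3CE-E12.5, where 16.4% were. Of 20 more tested at 1 CPM alone, 5 and 6 were called higher in Dlx5CE-E12.5 and Fgfr3CE-E12.5, where 11.2% and 18.3% of all 3137 such genes were, which makes 32 and 19 of 125 in all.

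**Figure D5:**
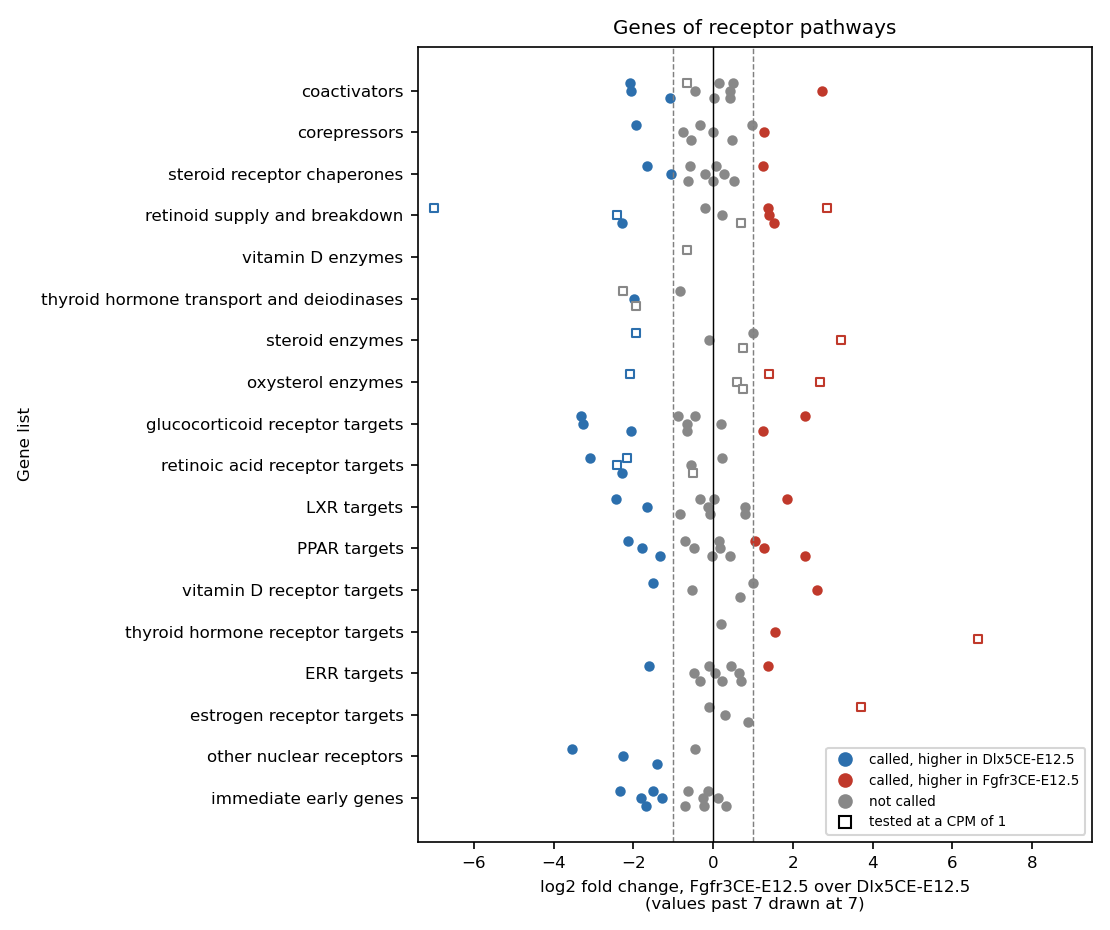
Log2 fold changes of the tested genes of each pathway list, Fgfr3CE-E12.5 over Dlx5CE-E12.5, with 1 point per gene, colours for the genes called, squares for those tested at 1 CPM and values past 7 drawn at 7. Among retinoic acid receptor targets all called genes lie below 0, with a median of -1.42 over the 4 tested at 10 CPM, and the coactivators lie on both sides, with a median of 0.08.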

How the data were processed

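Gene counts deposited by the authors were used. Per the study's methods, reads of SMART-Seq v4 and Nextera XT libraries, which keep no strand, were aligned to mm10 with TopHat2 2.0.13 and Bowtie2 2.2.1. The counter's strand setting was not given in the sources used here. The depth-normalized and rlog values that the authors also made were not used. Genes were annotated with GENCODE M21 on GRCm38. All protein-coding genes and reporters with at least 10 CPM in at least 2 of 5 libraries were fitted in R 4.3.3 with edgeR 4.0.16 (TMM factors, quasi-likelihood test, Benjamini-Hochberg adjustment over all genes tested), and genes that failed were taken from the same fit at 1 CPM. Calls needed an adjusted p under 0.05 and a log2 fold change of more than 1 in size. The steps were tested on simulated data. The members and lists were chosen with earlier results of these data known. Named with values in every library were the receptors called, the 5 with the highest level per length and those whose call changed under an alternative; of each pathway list, up to 4 called genes with the largest absolute log2 fold change and no overlap between the lineages, and the gene with the highest mean CPM; of each cell list, its most abundant gene and defining markers at 0. Not every gene that the rule takes is reported. Total counts ranged from 22035650 to 58166285 per library, and a floor of 3 counts covers counting error only. Alternatives were DESeq2 1.42.0 size factors or its Wald test, library size alone, the edgeR exact test, other filters, all features, adjusted p alone, a test of a change above 2-fold, the replicate number as a block, removal of trends on GC content or length, and leaving out each library. The levels of *Esrrb* and *Nr0b1* could not be analysed here, and only their promoters were searched.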

Additional observations from a re-analysis of the deposited data

How the results depend on the processing

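Of 430 log2 fold changes of the 26 tested receptors under the alternatives, 396 kept their direction and their side of the threshold, 15 lost a call, 11 gained one and 8 changed sign. For 66 genes of the lists the same counts were 1001, 67, 22 and 10 of 1100. Of the 11 called receptors, 5 (*Nr3c2*, *Esr1*, *Ppard*, *Rora* and *Nr2f6*) were called under every alternative that could test them. Without a library that carried them past the filter, *Ppard* (Dlx5CE-E12.5 replicate 2 or 3) and *Esrra* (either Fgfr3CE-E12.5 library) could not be tested at 10 CPM. Changes of sign were limited to 6 genes close to 0. *Rara* was -0.230 with the GC trend removed and from -0.0707 to 0.249 with a library left out, *Nr1h3* was -0.0981 with the GC trend and -0.0015 with the length trend removed and from -0.133 to 0.273 with a library left out, *Vdr* was 0.0575 with library size alone, and *Nr6a1* ran from -0.143 to 0.508 with a library left out. *Ctsk* was 0.16 with library size alone, 0.0307 with the GC trend removed, and from -0.0593 to 0.0338 with a library left out. *Notch3* was -0.000579 with 10 CPM asked of 1 library, -0.00495 with the replicate block, -0.194 and -0.0166 with the GC and length trends removed, and from -0.271 to 0.364 with a library left out. The cause was not tested. Testing for a change above 2-fold, which by construction asks for more, took the receptors called at 10 CPM from 7 to 4 higher in Dlx5CE-E12.5 and from 3 to 1 higher in Fgfr3CE-E12.5, and at 1 CPM from 8 to 4 and from 3 to 1. It took all genes at 10 CPM from 1318 to 659 and from 1653 to 1011, all genes at 1 CPM from 1700 to 813 and from 2196 to 1205, the pathway list genes from 32 to 20 and from 19 to 7, and the cell list genes higher in Fgfr3CE-E12.5 from 61 to 37. The adjusted p alone, which drops the fold threshold, gave 2363 and 2517 genes at 10 CPM and 2753 higher in Dlx5CE-E12.5 at 1 CPM, and all features gave 3761 there. The number tested at 1 CPM rose from 13225 to 16708, with 22.5% called higher in Dlx5CE-E12.5 in place of 12.9%, and the share of calls that were higher in Fgfr3CE-E12.5 fell from 56.4% to 43.1%. With a library left out, all genes called higher in Fgfr3CE-E12.5 at 10 CPM ran from 997 to 1680, the receptors higher in that lineage from 1 to 3, those higher in Dlx5CE-E12.5 at 1 CPM from 5 to 9, and the cell list genes higher in Fgfr3CE-E12.5 from 28 to 63, the lowest without Fgfr3CE-E12.5 replicate 3 in each case. The cause was not tested. The replicate block gave 6 and 3 called receptors at 10 CPM, with *Nr4a3* the one lost, and 1382 and 1678 genes, and the replicates share only a number, since same-numbered pairs had correlations of 0.13 and -0.05. The filters left out 11 receptors. Without a filter all 37 were tested, with 9 called higher in Dlx5CE-E12.5, where 10.01% of all 17092 genes were, and 3 higher in Fgfr3CE-E12.5, where 13.3% were, and *Rorb* was the only one of the 11 called. The design of 3 against 2 libraries limits the precision of all receptors.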
